A study of Mus musculus with 3 samples.

Results

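The matrix and adhesion genes of the retina were followed in 3 pools of neural retina from Rp1 knockout mice. The set held 98 of the 8251 genes with a usable probe set on the array. It was made up by gene symbol and not by signal: collagen chains, laminin chains, fibrillins, integrin chains, matrix metalloproteases (Mmp), tissue inhibitors of metalloproteases (Timp), Adam and Adamts genes, and Fn1, Sparc and Lum. The mice carried the Rp1 knockout on both alleles (Rp1-/-), on a background mixed from 129/SvEv and C57BL/6. They were killed at postnatal day 21, with retinas taken between 1 and 2 pm, and each RNA pooled the retinas of 3 to 4 animals. All 3 pools belong to 1 group, and a control group was not analysed here, so every comparison below is between pools of the same genotype and no test was made. Rp1 itself was not analysed here, so the knockout label rests on the submitters' description. The rod genes Gnat1, Pde6b, Pde6g, Prph2 and Rom1 were above background on all 3 arrays.

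Extracellular matrix is the protein mesh outside cells. Fibrillar collagens give tissues such as sclera their strength, while type IV collagen and laminins form basement membranes. The retina has such membranes at its vitreous face (the inner limiting membrane), around its vessels and, beyond the pigment epithelium, in Bruch's membrane. Integrins are paired alpha and beta receptors that tie cells to this mesh. Mmp and Adam proteases cut matrix and cell surface proteins, and Timp proteins restrain them. Neural retina has little fibrous matrix of its own, and choroid, sclera and ciliary body, which lie next to it, have much.

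Signals are in arbitrary units, scaled alike on each array, and are given for replicates 1, 2 and 3 in that order. Each compares pools at 1 probe set, and levels are not ranked between genes. A signal counted as above background when it exceeded the 95th percentile of 19 controls on the same array, probe sets directed at bacterial or yeast RNA. That limit was 160.3, 80.7 and 107.1, so replicate 1 had the highest limit. Its median signal over all probe sets was the highest too, at 296 against 216 and 250. Differences that follow replicate 1 at low signals are therefore given with the same count over all genes.

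On all 3 arrays, 43 of the 98 genes exceeded background (43.9%), against 60.7% of all genes. A further 26 were above it on no array (26.5%), against 15.7% of all genes. The other 29 were above background on 1 or 2 arrays. Of these, 15 were below it in replicate 1 alone (15.3%, against 8.88% of all genes) and 6 were above it in replicate 1 alone (6.12%, against 4.63%). In pooled tissue, fewer cells of a type and less RNA per cell cannot be told apart. By class, 17 of 31 collagen chains (54.8%) and 4 of 13 Mmp genes (30.8%) were above background on all arrays, as the plot of genes by class shows, and differences between classes were not tested.

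**Figure D1:**
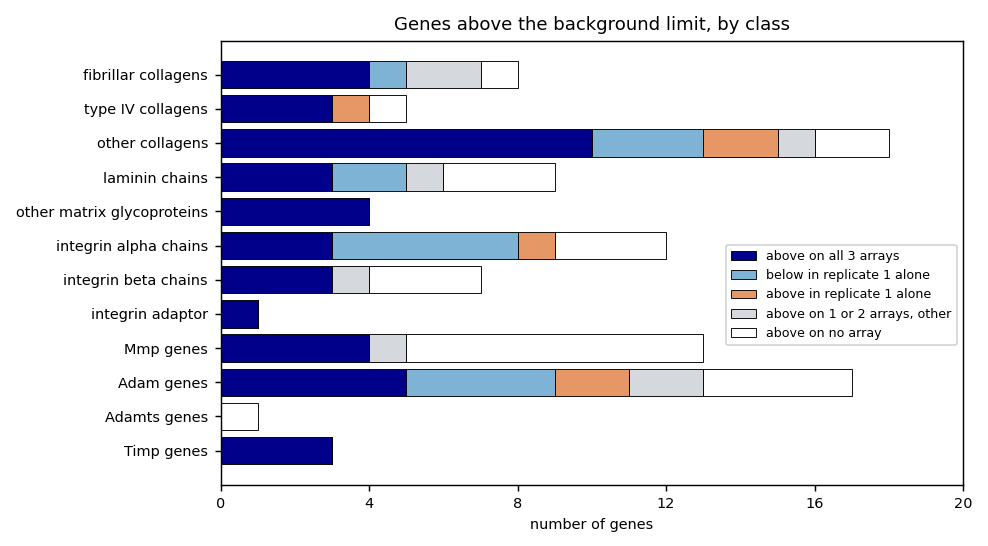
Number of genes (horizontal axis) in each class of matrix and adhesion gene, divided by whether the probe set lay above the background limit of each array. All 3 Timp genes and 17 of 31 collagen chains were above it on all 3 arrays, against 4 of 13 Mmp genes.

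Among the 43 genes above background on all arrays, 17 spanned 1 or more on the log2 scale (at least 2-fold) between the highest and the lowest pool (39.5%, against 28.3% of all such genes). Replicate 1 was the highest pool in 15 of these 17 (88.2%, against 58.5% of all genes with such a span), which is 34.9% of the 43, against 16.6% of all genes above background on all arrays. It was the lowest in the other 2, Timp2 and Itgb5 (11.8%, against 32.4% of all genes with such a span), which is 4.65% of the 43, against 9.19%. Without replicate 1, 4 of the 58 genes above background on the remaining arrays spanned 2-fold. For the same gene a span over fewer pools cannot be wider, and this count was not taken over all genes. With arrays scaled to a common median the count among the 43 was 20, of which 12 were highest (60%) and 8 lowest (40%) in replicate 1. Over all genes that scaling gave 1713, with 430 highest (25.1%) and 1142 lowest (66.7%) in replicate 1. The median SD between pools was 0.46 on the log2 scale, against 0.36 over all genes above background on all arrays. Replicate 2 was the lowest pool for 26 of the 43 (60.5%), against 32.4% of all such genes. With arrays scaled to a common median that became 16 of 43 (37.2%), against 16.9% of all genes, and with quantile normalization 21 of 43 (48.8%), against 26.7%.

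**Figure D2:**
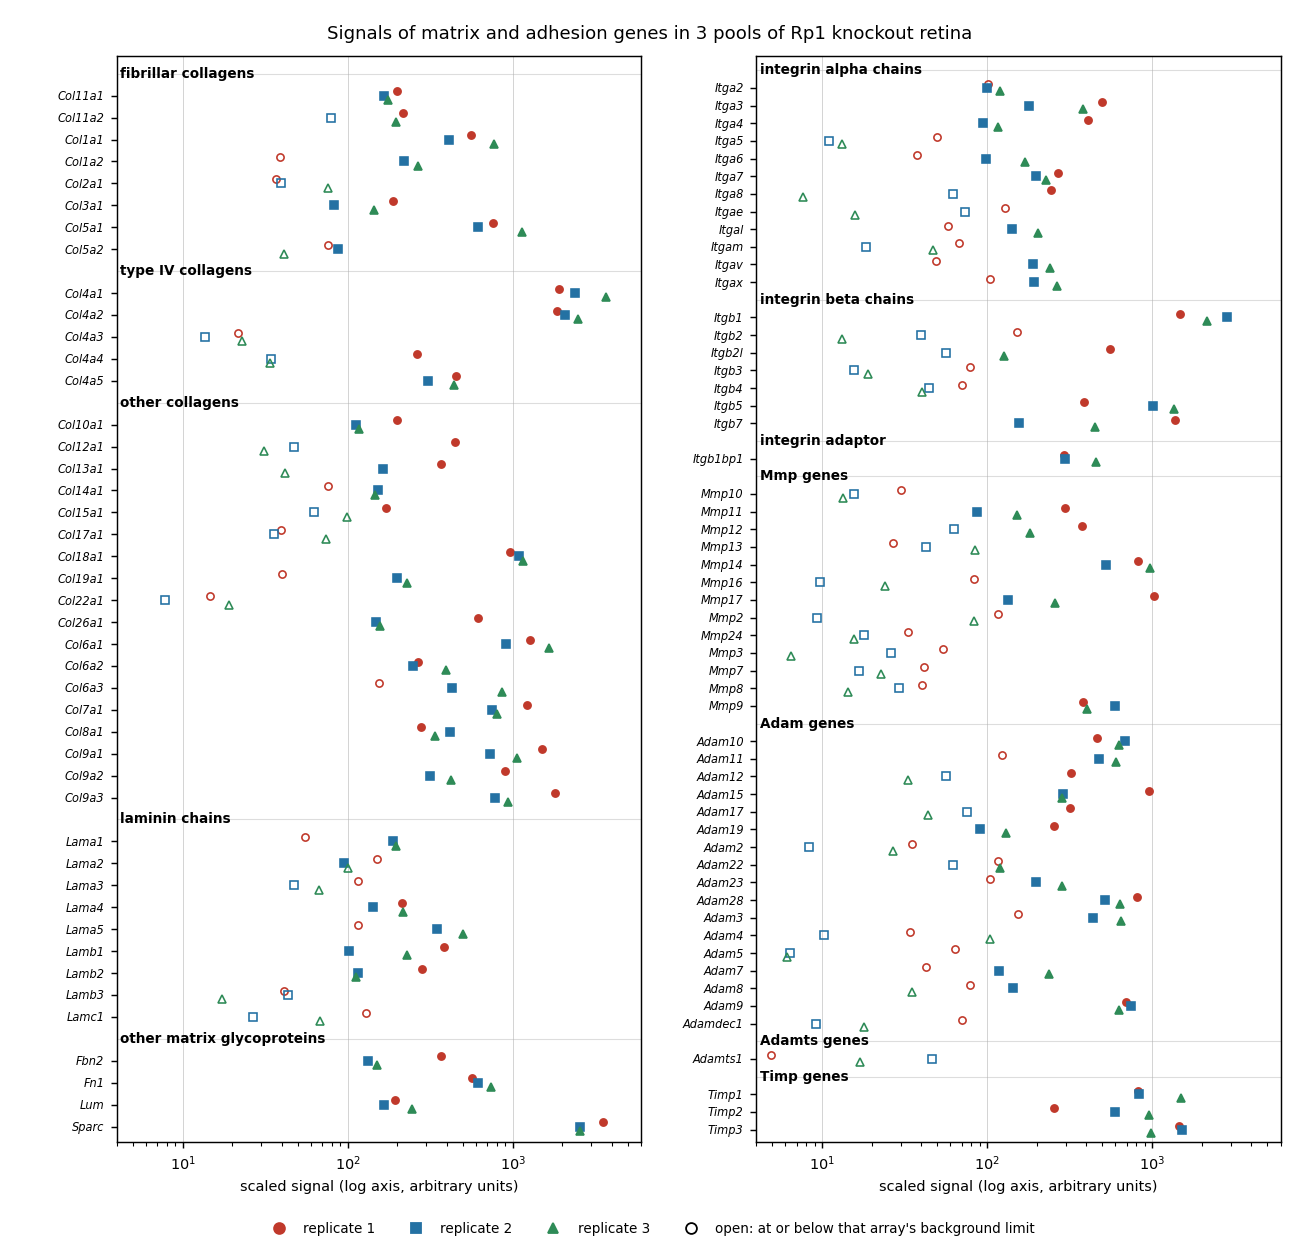
Scaled signal (log axis, arbitrary units) of each of the 98 genes in the 3 pools, in rows by class, with filled symbols above and open symbols at or below the background limit of that array. Col4a1, Col18a1, Fn1, Sparc, Itgb1, Timp1 and Timp3 lay above background on every array, while most Mmp genes lay near or under the limits.

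Type IV collagen, the network collagen of basement membranes, was measured for 5 chains. The Col4a1 and Col4a2 chains, which assemble together in nearly all basement membranes, were above background in every pool. Col4a1 gave 1906, 2394 and 3652 (mean 2651 ± 901, SD, n = 3). Col4a2 gave 1849, 2061 and 2495 (mean 2135 ± 329, SD, n = 3). Both were lowest in replicate 1 and highest in replicate 3, with spans of 0.94 and 0.43 on the log2 scale. Col4a5, a chain of kidney, eye and other specialised basement membranes, gave 452, 309 and 440. Its partner Col4a3 was above background on no array, and Col4a4 only in replicate 1, at 262, 34.5 and 34.0, so that replicate 1 was at least 3.25-fold above replicate 2.

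Col4a1 and Col4a2 lie next to each other and are read in opposite directions from a common start region. The start regions of Col4a1 and Col4a2 are shown because the chains shared their order over the 3 pools. The RefSeq windows (GRCm38.p6) run from 250 bases before to 50 bases after each annotated start, 5′ to 3′ on the strand of the gene, and capitals mark the 78 bases that both windows hold. Col4a1 lies on the minus strand at chr8:11312777-11313076 and Col4a2 on the plus strand at chr8:11312555-11312854.
Col4a1: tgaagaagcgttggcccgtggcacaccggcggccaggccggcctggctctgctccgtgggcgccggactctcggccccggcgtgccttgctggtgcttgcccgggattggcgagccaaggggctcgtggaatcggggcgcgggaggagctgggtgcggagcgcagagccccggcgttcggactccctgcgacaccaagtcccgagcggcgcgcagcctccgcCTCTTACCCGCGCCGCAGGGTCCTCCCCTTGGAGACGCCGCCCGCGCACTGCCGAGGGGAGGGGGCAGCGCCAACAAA
Col4a2: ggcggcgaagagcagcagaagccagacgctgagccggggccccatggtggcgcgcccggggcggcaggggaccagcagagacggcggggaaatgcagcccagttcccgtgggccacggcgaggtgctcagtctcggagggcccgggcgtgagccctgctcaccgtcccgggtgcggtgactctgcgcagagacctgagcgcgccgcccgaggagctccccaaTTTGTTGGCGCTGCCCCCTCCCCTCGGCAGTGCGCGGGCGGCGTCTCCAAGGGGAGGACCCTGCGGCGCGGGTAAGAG
Since the strands are opposite, the capitals of one are the reverse complement of the other. G and C make up 74% of the Col4a1 window and 73.7% of the Col4a2 window, against a median of 52.7% over all windows of the table. Neither window holds TATAAA on either strand. CCAAT occurs once in each, on the opposite strand of the Col4a1 window and on the printed strand of the Col4a2 window, and GGGCGG (GC box) occurs in both.

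Of the 98 genes, 61 had a window in that table. On either strand, GGGCGG was found for 35 of the 61 (57.4%), against 38.2% of all 27025 genes with a window. The share was 34.4% against 41.1% for CCAAT, 19.7% against 15.7% for TATAAA and 14.8% against 8.97% for TGANTCA, the letters bound by AP-1. These are matches of letters and not measured binding.

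The fibrillar collagens were measured for 8 chains, of which 4 were above background on all arrays. Col1a1, a chain of type I collagen and the main collagen of sclera, gave 556, 409 and 769 (mean 578 ± 181, SD, n = 3). Its partner Col1a2 was under the limit in replicate 1, with signals of 38.8, 219 and 269, and replicate 3 was at least 1.68-fold above it. A further probe set of each did not keep these orders: Col1a1 gave 37.9, 150 and 158 there, and Col1a2 gave 1424, 945 and 1959. Replicate 3 was the highest pool at all 4 of these probe sets. Col5a1, which joins type I fibrils, was also highest in replicate 3, at 763, 614 and 1132.

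Col3a1, a fibrillar collagen of vessel walls and loose tissue, gave 189, 82.9 and 145, with 2 further probe sets below background on all arrays. Col11a1, a minor chain of cartilage and vitreous fibrils, gave 198, 167 and 175, the narrowest span of the fibrillar chains at 0.25 on the log2 scale. Col11a2 was 217, 79.6 and 197, below background in replicate 2, and at least 2.69-fold higher in replicate 1. Col2a1, the main fibrillar collagen of vitreous, was above background on no array, and Col5a2 only in replicate 2, at 87.2 against a limit of 80.7.

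Type VI collagen forms beaded filaments in connective tissue from 3 chains made by Col6a1, Col6a2 and Col6a3. Col6a1 gave 1275, 906 and 1659 and Col6a2 gave 266, 248 and 395, so both were highest in replicate 3 and lowest in replicate 2. Col6a3 was 156 in replicate 1, below background, 431 in replicate 2 and 857 in replicate 3, with replicate 3 at least 5.35-fold above replicate 1. At the probe sets used, all 3 chains were thus highest in replicate 3, while the third chain alone was lowest in replicate 1. A further probe set of Col6a1 had another order, at 81.4, 92.3 and 33.7, above background in replicate 2 alone.

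Several matrix genes outside the 98, picked after their values were seen, had the same order of pools as Col6a3. Eln, the gene of elastin, was under the limit in replicate 1, with signals of 157, 438 and 810, and replicate 3 was at least 5.06-fold above it. Pcolce, which enhances the trimming of procollagens, gave 190, 780 and 1670. Dcn, a small proteoglycan of collagen fibrils and a fibroblast marker, was 23.1, below background, against 602 and 648, and Fbln1 gave 720, 1247 and 1424. Further matrix genes outside the 98 were instead highest in replicate 1. Fmod gave 575, 247 and 416, and Tnxb gave 438, 35.8 and 121, below background in replicate 2. Of 60 such genes measured, 12 were above background throughout and spanned 2-fold, with replicate 1 highest in 5 and lowest in 7. Other connective tissue markers had another order, with Thy1 at 2399, 1663 and 1515 and Vim at 475, 91.1 and 174. Over the 8 fibroblast and connective tissue markers, of which 5 were above background on all arrays, the summed signal was 4404, 4856 and 5089, and without Dcn it was 4381, 4254 and 4441. Over the 7 measured mural cell markers, 1 of which was above background on all arrays, it was 1296, 2085 and 1840, and without Acta2 it was 1241, 1363 and 1106. The marker above background throughout, Tagln, gave 458, 410 and 393, and Pdgfrb gave 390, 120 and 95.5, both highest in replicate 1. Over 5 pigment cell markers, with Dct and Pmel above background on all arrays and the other 3 below it in replicate 1 alone, it was 1422, 12026 and 7835. Thy1 and Vim of the connective tissue list are also expressed by ganglion cells and Müller glia. Which cells gave the signal of any marker, in either order of pools, was not tested. No marker of these 3 lists had a signal of 0, and Igf2 was the 1 connective tissue marker below the limit on every array. Whether cells from tissue around the retina contribute to these signals was not tested.

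**Figure D3:**
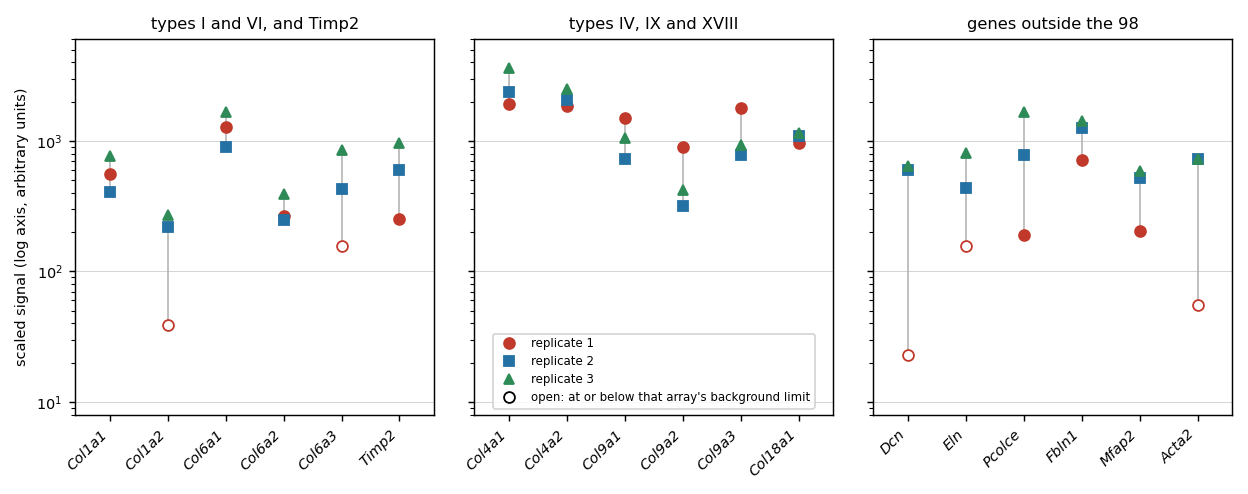
Scaled signal (log axis, arbitrary units) of selected collagen chains and Timp2 and, on the right, of connective tissue and smooth muscle genes outside the 98, with 1 symbol per pool and open symbols at or below background. The genes on the right were picked after their values were seen, and the markers Thy1, Vim, Tagln and Pdgfrb, highest in replicate 1, are not drawn. Col6a3, Timp2, Eln and Pcolce were lowest in replicate 1 and highest in replicate 3, while the 3 chains of type IX collagen were highest in replicate 1.

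The chains of type IX collagen, which coats type II fibrils in cartilage and vitreous, had another order, with replicate 1 highest for all 3. Col9a1 gave 1506, 730 and 1056 (mean 1097 ± 390, SD, n = 3). Col9a2 gave 903, 315 and 424 (mean 547 ± 313, SD, n = 3). Col9a3 gave 1793, 777 and 935 (mean 1169 ± 547, SD, n = 3). Each was lowest in replicate 2, where replicate 1 was 2.06-fold higher for Col9a1, 2.87-fold for Col9a2 and 2.31-fold for Col9a3. A further probe set of Col9a3 was above background in replicate 1 alone, at 393, 68.7 and 89.3. Col9a1, Col9a2 and Col9a3 together make the type IX molecule, and in the developing eye ciliary epithelium is a known source of it.

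Col9a1 is known to have a pair of promoters, with the downstream one giving the short form of the protein found in vitreous. The windows at both annotated starts are shown, since the array readings were not used to tell the starts apart. Both lie on the plus strand of chromosome 1 (GRCm38.p6), with 17593 bases between the starts, the upstream one at chr1:24177360-24177659 and the downstream one at chr1:24194953-24195252. Capitals mark the 50 bases from the annotated start on.
Col9a1 upstream: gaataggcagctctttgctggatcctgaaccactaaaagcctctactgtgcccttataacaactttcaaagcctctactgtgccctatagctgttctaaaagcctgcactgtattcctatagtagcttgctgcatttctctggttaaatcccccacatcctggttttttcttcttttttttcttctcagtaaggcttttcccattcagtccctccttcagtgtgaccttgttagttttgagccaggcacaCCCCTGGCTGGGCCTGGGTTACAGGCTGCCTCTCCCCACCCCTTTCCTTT
Col9a1 downstream: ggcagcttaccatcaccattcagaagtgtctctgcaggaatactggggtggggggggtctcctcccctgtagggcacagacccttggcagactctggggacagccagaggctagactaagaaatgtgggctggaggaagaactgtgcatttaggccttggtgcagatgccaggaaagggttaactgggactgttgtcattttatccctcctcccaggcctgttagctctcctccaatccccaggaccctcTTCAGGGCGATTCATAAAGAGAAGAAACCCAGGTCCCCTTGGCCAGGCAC
CCAAT occurs once in the downstream window and not in the upstream one, and neither holds TATAAA or GGGCGG on either strand. G and C make up 47.3% of the upstream and 55.7% of the downstream window.

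Among the remaining collagens above background on all arrays, Col18a1 had the narrowest span. It is a basement membrane proteoglycan whose end fragment is endostatin, and its loss in people gives Knobloch syndrome, with retinal and vitreous degeneration. It gave 958, 1090 and 1154 (mean 1067 ± 99.9, SD, n = 3), a span of 0.27 on the log2 scale. A further probe set followed it closely at 360, 411 and 430. Others did not, with 560, 229 and 229 at one of them, 103, 199 and 512 at another, and a signal above background in replicate 1 alone at the last. Its relative Col15a1 was above background in replicate 1 alone, at 171, 62.1 and 99.3. The bound was 2.13-fold over the limit of replicate 2. The 171 lay near the limit of replicate 1, 160.3, and under the highest control there, 235, so background may make up much of it. Col8a1, a chain of Descemet's membrane and vessel walls, gave 277, 415 and 336.

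Col26a1 gave 620, 148 and 158, the widest span of a collagen above background on all arrays, at 2.06 on the log2 scale. Col7a1, the collagen of anchoring fibrils, gave 1220, 745 and 808. Replicate 1 was the highest pool for both. It was highest for 6 of the 10 collagens of neither the fibrillar nor the type IV class that were above background on all arrays. Over all genes above background on all arrays this held for 42.6%. Col12a1, which lies on collagen fibrils, was above background in replicate 1 alone, at 448, 47.1 and 31.2, at least 5.56-fold above replicate 2, but a further probe set gave 69.4, 85.1 and 46.6. The transmembrane collagen gene Col13a1 was 366, 164 and 41.8, with replicate 1 at least 3.42-fold above replicate 3. That probe set does not have the plain suffix, and a further one was below background on all arrays. Col19a1 (40.1, 200 and 229) and Col14a1 (76.4, 152 and 147) were below background in replicate 1 alone, and for Col19a1 replicate 3 was at least 1.43-fold above replicate 1. Col10a1 gave 198, 113 and 116, and Col17a1 and Col22a1 were above background on no array.

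Laminins are built from an alpha, a beta and a gamma chain. Of 9 measured chain genes, 3 were above background on all arrays. Lamb1, a beta chain of most basement membranes, gave 385, 102 and 229. A further probe set of Lamb1 ran against it, at 87.6, 355 and 368, so the order of pools for this gene depended on the probe set. Lamb2, the beta chain of the inner limiting membrane and of photoreceptor synapses, gave 284, 115 and 113, a 2.52-fold span with replicate 1 highest. Lama4, an alpha chain of vessel walls, gave 214, 142 and 218.

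Lama5, an alpha chain of epithelial and vascular basement membranes, was under the limit in replicate 1, with signals of 115, 347 and 501. Replicate 3 was at least 3.12-fold above replicate 1 at this probe set, while a further one gave 354, 72.5 and 171. Lama1, the alpha chain of the inner limiting membrane, was also below background in replicate 1 alone, at 55.2, 187 and 197. The gamma chain gene Lamc1 was above background on no array at the probe set used, with 130, 26.6 and 67.6, yet gave 93.8, 529 and 984 at a further probe set. Lama3 and Lamb3, of the laminin of skin and other surface epithelia, were above background on no array, and Lama2 in replicate 2 alone.

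The glycoproteins Fn1, Sparc, Lum and Fbn2 were above background on all arrays. Fn1, the gene of fibronectin, gave 564, 618 and 740 (mean 641 ± 90.5, SD, n = 3). Sparc, which binds collagen and is made by glia and vessel cells, gave 3515, 2555 and 2548 (mean 2873 ± 556, SD, n = 3). Lum, the corneal and scleral proteoglycan lumican, gave 193, 166 and 244. These 3 genes spanned 0.39 to 0.56 on the log2 scale, less than the median of 0.69 for all genes above background on all arrays. Fbn2, a fibrillin of elastic fibres, gave 370, 132 and 151, a span of 1.48.

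Of 19 integrin chain genes, 6 were above background on all arrays. Itgb1, the beta chain that pairs with most matrix-binding alpha chains, gave 1469, 2851 and 2151 (mean 2157 ± 691, SD, n = 3), and 569, 657 and 688 at a further probe set. Replicate 1 was lowest at both. Itgb5, whose pairing with the alpha chain of Itgav serves pigment epithelium in taking up shed outer segments, gave 389, 1011 and 1349 (mean 917 ± 487, SD, n = 3). That is a 3.47-fold span with replicate 1 lowest, but a further probe set gave 499, 222 and 370, with replicate 1 highest.

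Itgav was 49.0, 190 and 241, below background in replicate 1 alone. Its further probe sets were above background on all arrays, with 1478, 3283 and 2539 at one and 388, 262 and 517 at the other. Itga6, a laminin receptor chain, was 37.5, 99.1 and 170, also below background in replicate 1 alone. Itga3, another laminin receptor chain, gave 497, 180 and 380, and its further probe set gave 431, 315 and 241, so both were highest in replicate 1. Itga7 gave 269, 198 and 226, the narrowest span of the alpha chains above background on all arrays at the probe set used. Its further probe sets ran against each other, with 289, 16.1 and 56.7 at one and 50.7, 178 and 193 at the other. Itga8 was above background in replicate 1 alone, at 243, 62.0 and 7.70, at least 3.02-fold above replicate 2, while a further probe set was below background on all arrays. Itga5, Itgae, Itgb3 and Itgb4 were above background on no array. Itga2 was below background in replicate 1 alone, at 102, 99.5 and 120, and lay near the limits in the other pools.

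The integrins of leukocytes did not share a pattern. Itgb7 gave 1377, 156 and 453, an 8.84-fold span and the widest of the 43 genes, and Itga4, its partner on lymphocytes, gave 408, 94.4 and 117. A further probe set of Itgb7 was below background on all arrays. Of the further probe sets of Itga4, one gave 178, 50.5 and 34.3, and the other was above background only in replicate 3, at 110. Itgal (58.0, 142 and 203) and Itgax (104, 192 and 266) were instead below background in replicate 1 alone, and their beta partner Itgb2 was above it on no array, as was Itgam. Itgb2l gave 555, 56.7 and 127, with replicate 1 at least 6.88-fold above replicate 2. Of 8 microglia and leukocyte markers, C1qa and Csf1r were above background on all arrays and Ptprc, Cd53 and Lyz2 on none. Their summed signal was 1472, 1435 and 1615.

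Itgb1bp1 entered the set through its symbol and encodes an adaptor of the integrin beta tail, not a chain. It gave 292, 299 and 458 at the probe set used, and 131, 328 and 433 at one of 2 further ones.

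Of 13 Mmp genes, 8 were above background on no array (Mmp2, Mmp3, Mmp7, Mmp8, Mmp10, Mmp13, Mmp16 and Mmp24). Mmp2, the gelatinase of connective tissue, was below the limit at its further probe set too. Mmp14, the membrane protease that activates the Mmp2 product, gave 824, 525 and 967 (mean 772 ± 225, SD, n = 3). Mmp9, a gelatinase of leukocytes and injured retina, gave 382, 594 and 402 (mean 459 ± 117, SD, n = 3), with a further probe set below background on all arrays. Mmp17, a lipid-anchored membrane protease, gave 1029, 135 and 257, a 7.65-fold span, and Mmp11 gave 296, 86.4 and 152. Replicate 1 was the highest pool for both. Mmp12, the elastase of macrophages, was 378, 63.1 and 182, with replicate 1 at least 4.69-fold above replicate 2. That probe set has a suffix for probes of relaxed selection, and a further one gave 28.0, 89.4 and 85.5.

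Of 17 Adam genes, 5 were above background on all arrays and 4 on none. Adam9, a membrane protease whose loss in people gives a cone-rod dystrophy, gave 695, 748 and 627 (mean 690 ± 60.9, SD, n = 3). At 0.26 on the log2 scale this was among the narrow spans of the set, together with those of Col11a1 and Col18a1. Adam10, a sheddase of Notch and other surface proteins, gave 464, 686 and 627, and 584, 524 and 415 at a further probe set. Adam17, the sheddase of tumour necrosis factor, was above background in replicate 1 alone, at 317, 75.4 and 44.1, at least 3.92-fold above replicate 2. Adam12 behaved alike, at 321, 56.0 and 33.3.

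Adam15 gave 964, 290 and 283, a 3.41-fold span with replicate 1 highest. Adam19 gave 254, 90.1 and 131, and Adam28 gave 808, 522 and 639. Adam11, Adam22 and Adam23 are neural genes whose products lack protease activity, and they did not share an order of pools. Adam11 was under the limit in replicate 1, with signals of 123, 477 and 608, and replicate 3 was at least 3.79-fold above it. Adam23 was 104, 197 and 286, also below background in replicate 1 alone, while Adam22 was above it in replicate 3 alone, at 116, 62.1 and 120. Adam3, known from testis, was 154, 440 and 650 at the probe set used, which has a suffix for probes of relaxed selection, and 294, 4.21 and 19.0 at another. Adam7 was below background in replicate 1 alone and Adam8 above it in replicate 2 alone. Adam2, Adam4, Adam5, Adamdec1 and Adamts1, the 1 Adamts gene of the set, were above background on no array at the probe set used. A further probe set of Adam5 was above background on all arrays, at 600, 539 and 1105.

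All 3 Timp genes were above background in every pool. Timp1 gave 819, 831 and 1497 (mean 1049 ± 388, SD, n = 3). Timp2 gave 254, 598 and 959 (mean 604 ± 352, SD, n = 3), a 3.77-fold span with replicate 1 lowest and replicate 3 highest. Both further probe sets of Timp2 were below background on all arrays. Timp3, which binds to Bruch's membrane and is mutated in Sorsby fundus dystrophy, gave 1453, 1520 and 988 (mean 1320 ± 289, SD, n = 3). Timp1 and Timp2 were highest and Timp3 was lowest in replicate 3.

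The position of replicate 1 varied with the level of signal. Of the genes above background on all arrays, 20 of the 43 had a mean signal under 500, and replicate 1 was highest for 14 of them (70%), against 58.9% of all genes at that level. At a mean of 500 or more it was highest for 8 of 23 (34.8%), against 32.2%. The median deviation of replicate 1 from the mean of the other pools was 0.79 at the lower level, against 0.37 over all genes there. At the higher level it was 0.02 against -0.10. Timp2 and Itgb5, with replicate 1 lowest, both had a mean of 500 or more, as did Col9a1, Col9a2, Col9a3, Adam15 and Itgb7, with replicate 1 highest.

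**Figure D4:**
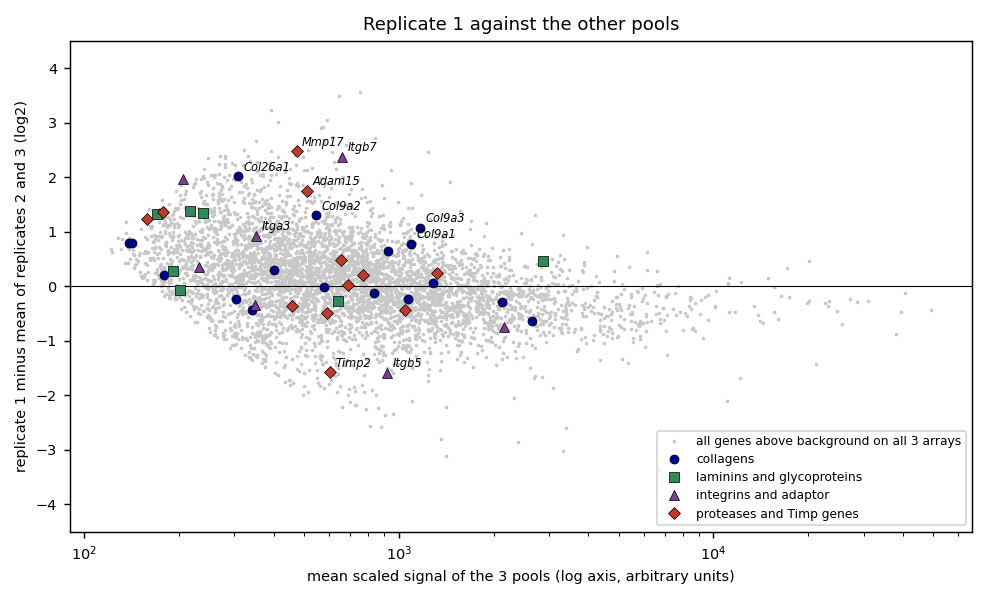
Deviation of replicate 1 from the mean of replicates 2 and 3 (log2, vertical axis) against mean scaled signal (log axis, arbitrary units) for all 5006 genes above background on all 3 arrays in grey, with the 43 matrix and adhesion genes in colour. Names are printed for genes that span 1 or more and have a mean above 300, and the grey cloud lies higher at low signals.

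Many genes had more than 1 probe set, which gave a second reading in the same pools. There were 42 further probe sets for 33 of the 98 genes, and 14 of these probe sets were above background on no array. In 26 pairs, over 19 genes, both probe sets were above background on at least 1 array. The deviation of replicate 1 had the same sign in 14 of the 26, a count not taken over all genes. In 6 pairs both probe sets were above background on all 3 arrays, and the highest pool was the same in 2 of them, for Col18a1 and Itga3. Over all genes this held for 326 of 887 such pairs (36.8%).

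**Figure D5:**
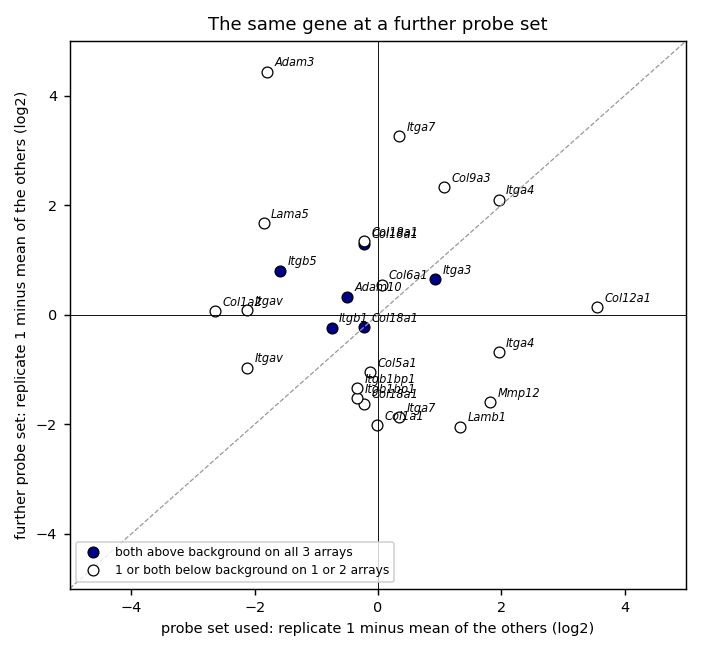
Deviation of replicate 1 from the mean of the other pools (log2) at the probe set used (horizontal axis) and at a further probe set of the same gene (vertical axis), for 26 pairs. The dashed line marks equal values, Itga3 and Itgb1 have the same sign at both probe sets, and Itgb5, Lamb1, Lama5 and Adam3 lie on opposite sides of 0.

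Other genes of the matrix, taken from a list of proteoglycans, glycoproteins, collagen-making enzymes, further proteases and adhesion adaptors, were measured for 60 genes. In every pool 35 lay above the limit (58.3%, against 60.7% of all genes), and 12 of the 35 spanned 2-fold or more (34.3%, against 28.3%). In 5 of the 12 replicate 1 was highest and in 7 it was lowest. Among the 98 genes the counts were 15 highest and 2 lowest. Over all genes they were 829 (58.5%) and 460 (32.4%) of 1418. With arrays scaled to a common median the 98 genes gave 12 highest and 8 lowest, a count not made for the other matrix genes. The difference between the lists was not tested. By kind, the genes above background on all arrays were 10 of 17 proteoglycans, 6 of 18 glycoproteins, 6 of 9 collagen-making and cross-linking enzymes, 7 of 8 further proteases and inhibitors and 6 of 8 adhesion adaptors. The collagen chaperone gene Serpinh1 gave 565, 757 and 526, and the prolyl hydroxylase gene P4ha1 gave 526, 710 and 515. Vtn, the gene of vitronectin, a ligand of alpha v integrins made by photoreceptors, gave 3485, 5623 and 4580. Agrn, the basement membrane proteoglycan agrin, gave 1620, 1169 and 1335.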

How the data were processed

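Total RNA from 3 pools of neural retina was hybridised to 3 one-colour Affymetrix arrays, named U74Av2 in the sample titles. The deposited table holds 1 linear intensity for each of 12488 probe sets and array. The software, background correction and scaling behind these intensities are not given in the sources used here, and no detection calls were used.

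Each array was multiplied by 1 factor that made its mean, trimmed by 2% at each end over 12422 probe sets, controls left out, equal to the average of the arrays. Log2 values were taken after a floor at the 5th percentile of each array. A fold against a signal below the limit is a lower bound, the brighter signal over the limit of the dimmer array. It bounds signals and not transcript, since background of the brighter array was not taken off. Of 14 genes with a bound of 2-fold or more, 10 were bright in replicate 1, which had the highest limit. Gene symbols came from the platform annotation, in which 10833 probe sets carry exactly 1 symbol. For a gene with several, a probe set with the plain suffix _at was preferred, then the highest mean. Of the 98 genes, 90 were read at a plain probe set and 8 at one with another suffix, which may take signal from related transcripts. The 8 were Col2a1, Col13a1, Lama3, Itgb1, Mmp12, Adam3, Adam28 and Adamts1. Another 2 probe sets shared by Adam1a and Mapkapk5 were left out. All 98 gene IDs matched the RefSeq table of GRCm38.p6, and promoter windows are RefSeq's.

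With 1 group of 3 samples there was no contrast and no test. Replicate numbers only name the samples, and the number of arrays limits precision. Deviations are each sample minus the mean of the other samples on the log2 scale. The genes, lists and alternatives were chosen with earlier results of these data known. Values were given, by a written rule, for up to 4 genes with the widest and 2 with the narrowest spans of each class among those above background on all arrays, for genes with a bound of 2-fold or more, for genes whose probe sets disagree and for named genes of retinal matrix. Other genes were named after their values were seen. The computations were tested on simulated data. Python 3.11.15, numpy 2.4.6, pandas 2.3.3 and matplotlib 3.10.9 were used.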

Additional observations from a re-analysis of the deposited data

How the results depend on the processing

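The background limit, scaling, floor, pseudocount, probe set choice and the threshold on spans were varied, and single samples were omitted. Between 31 and 58 of the 98 genes were above background on all arrays used, against 43 as reported, with the lowest count when the highest of the 3 limits was applied to every array (chosen after seeing the data) and the highest without replicate 1. The count of genes spanning 2-fold, 17 as reported, fell to 8 with a limit at the 40th percentile of signals, to 7 with the highest limit on every array and to 10 at a threshold of 1.5, the first 2 with fewer genes above the limit and the last by its own construction. Leaving out single samples gave 4 to 18 such genes among the 44 to 58 above background on the remaining arrays. A span over fewer pools cannot be wider for the same gene. Among these alternatives, counts over all genes were made for the changes of scaling only. The median deviation of replicate 1, 0.28 as reported, became -0.064 under scaling to equal medians and -0.012 with the highest limit on every array, and ranged over 0.21 to 0.52 with samples left out. That of replicate 3, 0.01 as reported, ranged over -0.21 to 0.42. That of replicate 2 was below 0 in every setting run. Scaling to a common median moved the median deviation of all genes to -0.28 in replicate 1 and 0.32 in replicate 2. Of 136 values for the 17 wide genes under the alternatives, 134 kept the sign of the deviation of replicate 1. The exception was Lamb1, at -2.05 with the probe set of highest mean and -0.14 with the mean of its probe sets, where its second probe set enters. Many of the 136 values could not change. Removing the floor left all 17 genes as they were, and the choice of probe set acts only on genes with several. No paired analysis was possible because all samples belong to 1 group. Signals near the limits carry the least information, and 55 of the 98 genes were at or below the limit on at least 1 array.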

Other observations

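Markers of other cells of the eye gave the following signals in replicates 1, 2 and 3, as values only. The 8 endothelial markers, 5 of them above background on all arrays, summed to 3500, 2237 and 2667, and replicate 1 was highest for 6 of the 8. Of the 5, Flt1 gave 722, 272 and 318 and Pecam1 gave 629, 286 and 363, while Eng was lowest in replicate 1, at 450, 582 and 597. The 7 measured Müller glia markers, all above background, summed to 15972, 25939 and 22450. Replicate 2 was highest for 4 of the 7, among them Clu, at 3682, 9331 and 8369, and replicate 1 was highest for Glul, at 3557, 2390 and 1378, and for Vim. The 3 measured astrocyte markers, with Gfap and S100b above background on all arrays, summed to 654, 448 and 476. The 7 lens markers, all above background, summed to 128467, 189739 and 133972, the 4 cornea markers, with Krt12 alone above background on all arrays, to 722, 486 and 842, and the 4 red blood cell markers, 2 of them above background on all arrays, to 5490, 31716 and 8254. The 5 rod markers summed to 72021, 104385 and 71581.

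Among the 60 other matrix genes, several had wide spans. Sdc3, a syndecan of neurons, gave 627, 154 and 209, and Tnc, the gene of tenascin C, gave 431, 172 and 173. Mfap2, of elastic microfibrils, gave 203, 521 and 585, and Pxn, the focal adhesion adaptor paxillin, gave 169, 426 and 426. Nid1, the gene of the laminin linker nidogen, was above background in replicate 1 alone, at 320, 57.9 and 89.7, as were Col4a4, Col12a1 and Col15a1 among the collagens. Spock1, a proteoglycan of nervous tissue, was under the limit in replicate 1, with signals of 147, 543 and 502, and replicate 2 was at least 3.39-fold above it. These genes were chosen after their values were seen.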
